A study of Mus musculus with 24 samples.

Results

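The comparison described here is between inguinal white adipose tissue of sedentary mice at ZT15 and at ZT3, taken as all 12 sedentary libraries out of the 24 in the series, 6 at each time, over all 16233 genes of the deposited table. ZT counts hours from lights on, so ZT3 lies early in the rest phase of a mouse and ZT15 early in its active phase. All mice were male C57BL6 animals aged 10 to 11 weeks, with no genetic change named. The sedentary groups, called ZT3 SED and ZT15 SED, had spent 1 hour on an artificial treadmill as a sham treatment, so they were handled and are not undisturbed animals. The other 12 libraries, ZT3 RUN and ZT15 RUN with 6 each, came from mice that exercised for 1 hour. They share in the estimate of each gene's spread, and so bear on the p-values of the sedentary comparison. Otherwise they are used below mainly for the same time comparison. The labels give each animal's time of sampling and no hour after the bout. No label ties a library to its own mouse, so p-values measure the spread between libraries, which may be technical. Because only 2 times were sampled, no rhythm, phase or amplitude can be read from them.

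The inguinal depot is a subcutaneous fat store that holds adipocytes, fibroblast-like progenitors, vessels, macrophages and a lymph node. Most cells keep time with a transcriptional loop in which the paired activators BMAL1 (gene Arntl) and CLOCK, or NPAS2 in the place of CLOCK, bind E-boxes and drive Per and Cry genes, whose proteins then repress that pair. In a second loop REV-ERB proteins (Nr1d1 and Nr1d2) and ROR proteins compete at ROR elements, and DBP, TEF, HLF and their antagonist NFIL3 act on D-boxes. In fat, clock outputs, feeding and hormones such as glucocorticoids are all known to vary between rest and activity.

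Values are the deposited normalised signal, that is, reads per M (mega) reads scaled between libraries by TMM, and no levels are compared between genes. Differences are ZT15 minus ZT3 on the log2(signal + 1) scale ± SE, which understates the change of low genes, and folds are these differences turned back from log2. A gene is called when its limma adjusted p is under 0.05. Sedentary libraries held 23.1 to 34.5 M recovered reads. The adipocyte marker list ran to a summed signal of 25615 to 34165 at ZT3 and 17802 to 36754 at ZT15, so the labelled tissue carried its markers in every library. Libraries are named by group and by the number in their title, and some stood apart. ZT15_SED_6 and ZT15_SED_22 were high in Cd79a, a B cell gene, at 54.6 and 14.1, and no other sedentary library exceeded 1.33, whereas the 10 lymphocyte markers summed to 739 in ZT15_SED_6. Myh4, a fast muscle myosin, was above 5000 in ZT3_SED_10, ZT3_SED_20 and ZT15_SED_14, and the 10 skeletal muscle markers summed to 40828 in ZT15_SED_14. All 8 macrophage markers and all 8 markers of preadipocytes and fibroblasts had a negative difference, with medians of -0.65 and -0.47. All 10 skeletal muscle markers were below 0 (median -1.86) and all 10 lymphocyte markers above 0 (median 1.46), and outside the libraries just named these lists overlapped between the times. No gene of any of the 11 cell type lists was called.

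In sedentary mice, 191 genes differed between the times, which was 1.18% of all genes. Of these, 100 were higher at ZT15 (0.616% of all genes) and 91 were lower (0.561%), and a change of 2-fold or more was reached by 20 of the higher and 19 of the lower genes. The 12 libraries separated without overlap for 70 of the higher and 78 of the lower genes, against 407 genes (2.51%) in the whole table. The median difference over all genes was 0.016, with 8769 genes above 0 and 7464 below. The lists below are described by counts to be read against these shares, and no list was tested as a set. The largest fall was that of Nr1d1, and Per2, Cry1 and Hlf were among the largest rises. Without the 3 sedentary and 3 exercised libraries with Myh4 above 5000, 18 libraries remained in the fit, and 47 genes were called, 43 of them among the 191. Of the genes named below, Hlf, Tspan4, Pim3, Slc2a3, Syt12, Prodh, Fmo1, Hspa8, Zfp970, Ccdc9b, Fos, Ccn1, Fbn1, Col1a1, Col5a3, Loxl2, Mmp14, Klhl13, Syne3 and Smad6 were not called there. All kept their sign, with differences 0.687 to 1.24 times those over all libraries. Without the libraries with Cd79a above 5, 255 genes were called, of which 152 were among the 191. Of the named calls, 10 were lost without some single libraries, as stated beside each gene, and 9 of these (all but Tsc22d3) were also lost under some other scaling, tool, covariate or choice of libraries, Fkbp5, Fbn1 and Col1a1 with edgeR among them (adjusted p = 0.0995, 0.0501 and 0.0564).

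**Figure D1:**
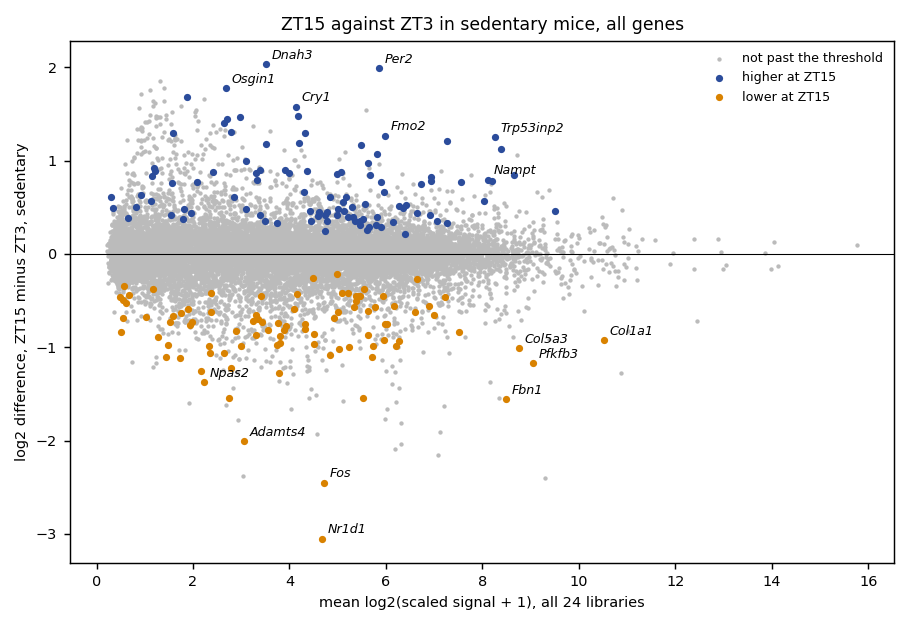
Difference between ZT15 and ZT3 in sedentary mice (log2, vertical) against mean expression over 24 libraries (log2(signal + 1), horizontal), 1 point per gene. The 100 genes called higher and 91 called lower are coloured, and Nr1d1, at -3.05, lies farthest from 0.

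Promoters of clock genes were searched for the elements of these loops, and 3 are printed, for an E-box, a D-box and a ROR element. They are RefSeq sequences on GRCm38.p6, from 250 bases before to 50 after an annotated start, read 5′ to 3′ on the strand of the gene, with a matched element in capitals. All 3 were picked after their values were seen, and of them only Cry1 was called. The windows of the called genes Nr1d1, Npas2 and Hlf held none of these 3 kinds of element, nor did that of the first Arntl start. E-boxes were also present in windows of Ciart, Bhlhe41, Tef and the first Per1 start, and a ROR element in that of Nfil3. None of these genes was called. The Cry1 window lies on the minus strand at chr10:85185005-85185304 and holds an E-box. The Per3 window lies on the minus strand at chr4:151044616-151044915 and holds a pair of D-boxes. The Arntl window belongs to the second of its starts, on the plus strand at chr7:113207261-113207560, and holds a ROR element.
Cry1: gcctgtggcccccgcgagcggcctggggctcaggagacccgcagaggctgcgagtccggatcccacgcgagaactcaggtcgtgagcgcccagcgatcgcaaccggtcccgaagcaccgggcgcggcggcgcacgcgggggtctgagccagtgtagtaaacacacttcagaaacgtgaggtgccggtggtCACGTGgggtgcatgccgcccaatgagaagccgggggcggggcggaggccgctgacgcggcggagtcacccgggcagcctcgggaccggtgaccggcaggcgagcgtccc
Per3: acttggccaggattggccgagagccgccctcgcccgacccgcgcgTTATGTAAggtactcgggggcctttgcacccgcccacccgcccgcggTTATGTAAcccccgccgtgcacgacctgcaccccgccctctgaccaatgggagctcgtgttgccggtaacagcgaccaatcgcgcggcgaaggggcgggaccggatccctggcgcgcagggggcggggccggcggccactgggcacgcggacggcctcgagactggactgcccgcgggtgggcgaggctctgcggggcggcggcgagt
Arntl: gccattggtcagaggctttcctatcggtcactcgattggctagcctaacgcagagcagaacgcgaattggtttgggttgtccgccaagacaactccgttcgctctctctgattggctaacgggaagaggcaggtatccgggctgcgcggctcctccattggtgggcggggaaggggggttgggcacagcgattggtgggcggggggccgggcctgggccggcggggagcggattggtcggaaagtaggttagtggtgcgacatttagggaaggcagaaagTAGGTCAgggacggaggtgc

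Elements were searched on both strands as the E-box CACGTG, the ROR element TAGGTCA or TGGGTCA, the D-box TTATGTAA or TTACGTAA, the cyclic AMP element TGACGTCA, the glucocorticoid element (GNACA and TGTNC, 3 bases apart) and the heat shock element (TTC, GAA and TTC, each 2 bases apart). None of the first 4 kinds contains another. An E-box was present in 11.0% of the 12288 genes with a promoter in the table, in 12 of the 73 higher genes with a promoter (16.4%) and in 5 of the 68 lower ones (7.35%). The higher genes with an E-box included Cry1, Lonrf3, Tspan4 and Fkbp5, and the lower ones included Pfkfb3. A D-box was present in 0.936% of all promoters, in 4 of the higher genes (Gabrr2, Crtac1, Homer2 and Mmaa, or 5.48%) and in none of the lower ones. ROR elements were present in 6.26% of all promoters, in 1 higher gene (1.37%) and in 4 lower genes (5.88%). The cyclic AMP element was found in 3.26% of all promoters and in 3 of the higher genes (Trp53inp2, Hlf and Mturn, or 4.11%). The glucocorticoid element was found in 0.496% of all promoters and in 1 higher gene (Acnat2), and the heat shock element in 0.635% of all promoters, in 3 higher genes (Acnat2, Dnajb6 and Pus7) and in 1 lower gene (Creb3l3). These shares are descriptions of letters in a short window and were not tested.

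Among the repressors of the loop, Nr1d1, which encodes REV-ERBα, fell the most of all genes. Its signal ran from 65.7 to 95.0 with a median of 85.9 at ZT3, and from 5.92 to 12.3 with a median of 9.56 at ZT15. Every ZT15 library was below every ZT3 library, and the difference was -3.05 ± 0.19 (8.30-fold lower, adjusted p = 7.97e-10). Its paralogue Nr1d2 ran from 85.2 to 152 at ZT3 and from 62.9 to 114 at ZT15, with overlapping groups and a difference of -0.29 ± 0.19 (adjusted p = 0.575). Exons of Nr1d1 overlap those of Thra, a thyroid hormone receptor gene, on the opposite strand. Thra fell as well, from 78.4 to 102 at ZT3 to 44.1 to 70.9 at ZT15 (-0.55 ± 0.13, adjusted p = 0.0333), and without the strand setting of the counting the reads of this pair cannot be told apart. It was the only pair of overlapping called genes, although 26 called genes overlap some listed gene. Among those named below, Naa60, Adamts4, Smarca2, Tspan4, Igsf10, Kdelr3 and Dnah3 overlap uncalled neighbours on the opposite strand, and Irgm2 overlaps the uncalled Igtp on the same strand.

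Per2 and Cry1, whose proteins close the negative limb, both rose. Per2 ran from 12.9 to 45.8 with a median of 29.2 at ZT3, and from 64.1 to 134 with a median of 110 at ZT15. The groups did not overlap, and the difference was 1.99 ± 0.26 (3.97-fold, adjusted p = 0.00024). At ZT3 the libraries were uneven: ZT3_SED_2, ZT3_SED_4 and ZT3_SED_10 were at 40.3, 37.7 and 45.8, and the other 3 between 12.9 and 20.7. Cry1 was tighter, from 7.12 to 10.3 at ZT3 (median 8.72) and from 21.6 to 34.9 at ZT15 (median 28.6), again with no overlap. Its difference was 1.58 ± 0.12 (2.99-fold, adjusted p = 7.17e-08), and it had the smallest SE of the called clock repressors. Cry2 did not pass the test (0.11 ± 0.16, adjusted p = 0.839), with 33.5 to 67.6 at ZT3 and 44.5 to 69.5 at ZT15.

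The remaining repressors gave no call with limma, and the call of Per3 turned on the setting. Per3 ran from 38.9 to 97.5 at ZT3 (median 58.8) and from 71.6 to 154 at ZT15 (median 118), with a difference of 0.86 ± 0.22 (adjusted p = 0.0540). It passed in 7 alternatives, among them DESeq2 (adjusted p = 0.011) and the fits without ZT3_SED_2 and without ZT15_SED_6 (adjusted p = 0.022 in both). Per1, which responds to light, stress and glucocorticoids as well as to the clock, ran from 39.7 to 163 at ZT3 and from 58.4 to 100 at ZT15 (0.31 ± 0.29, adjusted p = 0.736). Its highest value came from ZT3_SED_10, where the other ZT3 libraries reached at most 64.8. Ciart, Bhlhe40 and Bhlhe41, repressors of the same pair of activators, had differences of 0.21, -0.37 and -0.12 with overlapping groups. Of the 10 clock repressors, 2 rose, 1 fell and 7 did not pass with limma.

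Among the activators Npas2 fell. Npas2 ran from 4.99 to 10.4 at ZT3 (median 6.48) and from 0.638 to 3.75 at ZT15 (median 2.27), with no overlap and a difference of -1.37 ± 0.23 (2.59-fold lower, adjusted p = 0.00205). Its lowest library, ZT15_SED_22, was one of the 2 high in Cd79a, but the other, ZT15_SED_6, was above the ZT15 median at 2.80. Arntl itself ran from 18.0 to 26.9 at ZT3 and from 10.3 to 28.2 at ZT15 (-0.10 ± 0.20, adjusted p = 0.888). Clock (-0.23 ± 0.13) and Rora (0.03 ± 0.15) did not pass either. The approximate 95% range of 2 SE around the Arntl difference spans changes in both directions, so equality was not shown.

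Among the D-box factors Hlf rose, from 5.78 to 23.0 at ZT3 (median 9.49) to 21.8 to 42.7 at ZT15 (median 32.8). The groups overlapped only through ZT3_SED_2, at 23.0, and ZT15_SED_16, at 21.8, and the difference was 1.47 ± 0.24 (2.78-fold, adjusted p = 0.00175). Tef had a difference of 0.55 ± 0.17 (adjusted p = 0.107), with 91.7 to 185 at ZT3 and 131 to 266 at ZT15. Dbp, often the factor of this family with the steepest daily course, ran from 14.3 to 27.9 at ZT3 and from 11.3 to 26.6 at ZT15 (-0.33 ± 0.22, adjusted p = 0.605). Their antagonist Nfil3 was uneven within both groups, from 9.03 to 27.0 at ZT3 and from 13.1 to 30.9 at ZT15 (0.61 ± 0.34, adjusted p = 0.501). Of the 8 genes for turnover of clock proteins, such as the casein kinase Csnk1d, none was called with limma, and their median difference was 0.015.

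**Figure D2:**
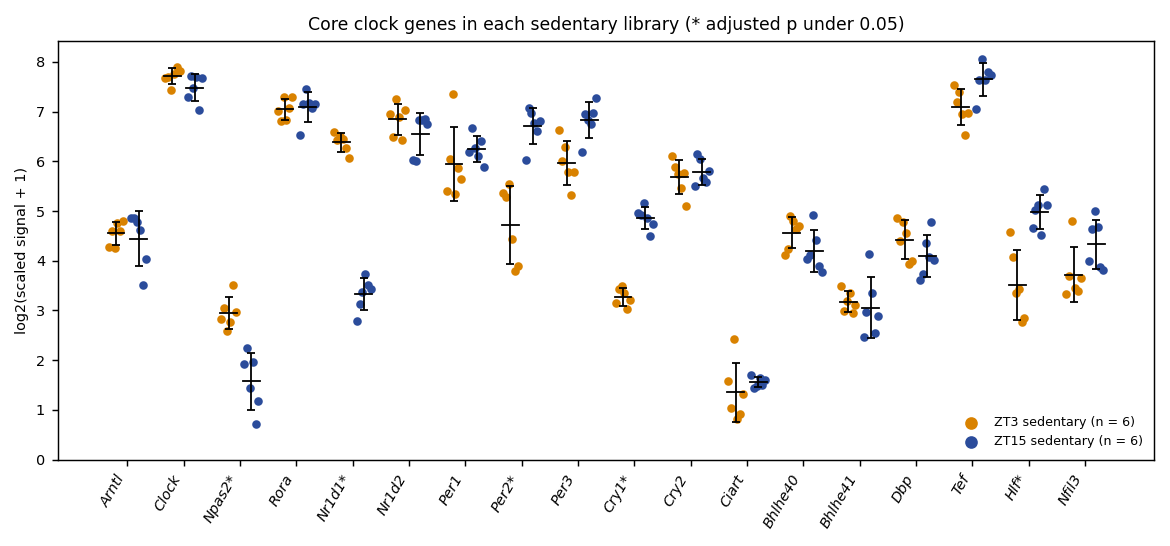
Signal of 18 clock genes as log2(signal + 1) in each sedentary library, with 6 points per time and the mean ± SD as bars. The groups are fully separate in Npas2, Nr1d1, Per2 and Cry1, and Arntl, Clock, Rora and Dbp overlap broadly.

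Of 15 known clock output genes, 4 rose and 1 fell. Lonrf3, a RING finger gene, ran from 2.37 to 4.37 at ZT3 and from 7.16 to 14.1 at ZT15 (1.30 ± 0.17, 2.47-fold, adjusted p = 0.000184). Nampt, the rate-limiting enzyme of NAD salvage, which is also secreted by fat, ran from 171 to 231 at ZT3 and from 257 to 381 at ZT15 with no overlap (0.80 ± 0.12, 1.74-fold, adjusted p = 0.00102). Wee1, a kinase that restrains entry into mitosis, ran from 6.74 to 18.1 and from 16.7 to 26.7 (1.19 ± 0.25, adjusted p = 0.0134), with an overlap made by ZT3_SED_10 and ZT15_SED_6. Tspan4, a tetraspanin, had a difference of 0.85 ± 0.16 (adjusted p = 0.00497). Pim3, a serine/threonine kinase gene, fell from 71.0 to 107 at ZT3 to 40.2 to 56.8 at ZT15 (-0.93 ± 0.20, adjusted p = 0.0164), with no overlap. The 10 others included Usp2 (0.79, adjusted p = 0.399) and Alas1 (0.66, adjusted p = 0.0666), neither of them past the threshold.

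Of 18 genes induced by glucocorticoids, whose blood level in mice is known to peak near the start of the active phase, 2 rose and none of the others passed with limma. Fkbp5, a co-chaperone of the glucocorticoid receptor, ran from 56.3 to 202 at ZT3 (median 63.2) and from 153 to 246 at ZT15 (median 190), with a difference of 1.21 ± 0.30 (2.32-fold, adjusted p = 0.0479). Tsc22d3, the leucine zipper GILZ, ran from 129 to 390 at ZT3 (median 172) and from 318 to 474 at ZT15 (median 424), with a difference of 1.12 ± 0.25 (2.18-fold, adjusted p = 0.0195). In both genes the overlap came from ZT3_SED_10, the highest ZT3 library also for Per1 and Nfil3. Neither call was firm: the adjusted p reached 0.117 for Fkbp5 and 0.0613 for Tsc22d3 when ZT3_SED_12 was left out, and the call was lost when any 1 of 11 and of 4 libraries, respectively, was left out. The list's median was 0.044, with 10 members above 0 and 8 below, and Dusp1, a phosphatase gene of the same list, had a difference of -0.84 (adjusted p = 0.0872).

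Genes for fuel handling were called singly rather than by pathway. Pfkfb3, whose product makes the allosteric activator of phosphofructokinase, fell from 613 to 1142 at ZT3 (median 765) to 275 to 503 at ZT15 (median 316). The groups did not overlap, and the difference was -1.17 ± 0.18 (2.25-fold lower, adjusted p = 0.00101). Slc2a3, which encodes the glucose transporter GLUT3, rose from 7.35 to 16.2 at ZT3 to 22.8 to 33.6 at ZT15 with no overlap (1.30 ± 0.24, 2.46-fold, adjusted p = 0.00538). These were the only called members of the 29 genes of glucose uptake and glycolysis, whose median was 0.042. The insulin-responsive transporter Slc2a4 had a difference of 0.21 (adjusted p = 0.772). Pde3a, a phosphodiesterase that degrades cyclic AMP, fell from 36.4 to 56.3 at ZT3 to 17.9 to 29.1 at ZT15 (-1.02 ± 0.14, 2.03-fold lower, adjusted p = 0.000322), with no overlap. It was the only called member of 22 lipolysis genes, and Pde3b, its paralogue in adipocyte insulin action, had a difference of 0.06.

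No member of the lists for lipogenesis (18 genes), cholesterol synthesis and uptake (21), fatty acid uptake and triglyceride synthesis (17), fatty acid oxidation (18) or insulin signalling (18) was called with limma. Their medians ran from -0.051 in insulin signalling to 0.14 in fatty acid oxidation. Scd1 and Fasn, the desaturase and the synthase of lipogenesis, had differences of 0.09 ± 0.62 and -0.17 ± 0.37, so little can be said of either. These SEs are moderated by limma towards genes of like expression and are not the spread of the libraries alone. Scd1 ran from 38235 to 71023 at ZT3 and from 47820 to 74144 at ZT15. In Fasn, ZT3_SED_20 was at 9486 and 3 ZT15 libraries between 10721 and 11754, and the other 8 were between 17619 and 24300. Pdk4, a brake on pyruvate oxidation, had a difference of 0.41 ± 0.34. The leptin gene Lep ran from 133 to 501 at ZT3 and from 365 to 1045 at ZT15 (1.06 ± 0.40, adjusted p = 0.249). Of 17 thermogenic genes 14 had a positive difference (median 0.31) and none was called. Without the libraries with Myh4 above 5000 that median was 0.067, and the median of fatty acid oxidation was -0.0087. Ucp1 ran from 0.0342 to 208 across sedentary libraries, with both groups wide. It was highest in ZT15_SED_14, the library highest in muscle markers.

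Of 19 oxidation and detoxification enzymes 2 rose, and of 22 FOXO and autophagy genes 1 rose, where 0.616% of all genes did. Neither count was tested. Fmo2, a flavin monooxygenase, ran from 34.0 to 45.9 at ZT3 and from 54.0 to 145 at ZT15 with no overlap (1.27 ± 0.20, 2.41-fold, adjusted p = 0.00118). Its relative Fmo1 rose by 0.79 ± 0.18 (1.72-fold, adjusted p = 0.0296), a call lost when any 1 of 9 libraries was left out (adjusted p up to 0.0809). Prodh, which starts proline breakdown, rose by 1.07 ± 0.19 (2.10-fold, adjusted p = 0.00315), with an overlap made by ZT15_SED_6 at 49.4 and ZT3_SED_2 at 57.4. Trp53inp2, a regulator of autophagy, ran from 145 to 238 at ZT3 and from 339 to 702 at ZT15, with no overlap (1.25 ± 0.17, 2.38-fold, adjusted p = 0.000322). Osgin1, a gene induced by oxidative stress, ran from 2.29 to 4.03 at ZT3 and from 8.67 to 18.7 at ZT15 (1.78 ± 0.21, 3.42-fold, adjusted p = 5.88e-05).

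Smaller but tight rises were seen in Smarca2, an ATPase of chromatin remodelling complexes, and in Naa60, an N-terminal acetyltransferase. Smarca2 ran from 132 to 168 at ZT3 and from 213 to 299 at ZT15 (0.77 ± 0.09, adjusted p = 5.88e-05). Naa60 ran from 34.3 to 42.6 and from 53.7 to 59.6 (0.54 ± 0.07, adjusted p = 8.77e-05). Both were fully separate between the times. Ccdc183, a low gene, rose from 0.308 to 1.16 at ZT3 to 1.75 to 2.96 at ZT15 (0.83 ± 0.11, adjusted p = 0.00024), and Syt12, a synaptotagmin, rose by 1.17 ± 0.21 (adjusted p = 0.00363). Zfp970 (0.88 ± 0.21, adjusted p = 0.0404) and Ccdc9b (0.85 ± 0.20, adjusted p = 0.0367) also rose, but their calls were lost when any 1 of 10 and of 8 libraries, respectively, was left out, with adjusted p up to 0.110 and 0.108.

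The medians of the cytosolic heat shock and ER chaperone lists had opposite signs, and the lists were not tested against each other. Of 18 cytosolic heat shock genes 17 had a positive difference, with a median of 0.32 against 0.016 over all genes, and Hspa8, the constitutive HSC70, was the only one called. Hspa8 ran from 514 to 753 at ZT3 and from 684 to 1030 at ZT15 (0.46 ± 0.11, 1.37-fold, adjusted p = 0.0455). Hspa2, an HSP70 family gene outside that list, ran from 5.20 to 7.85 and from 8.90 to 17.7 with no overlap (0.90 ± 0.12, 1.87-fold, adjusted p = 0.0003). Hsph1 (0.67, adjusted p = 0.197) and Dnajb1 (0.29, adjusted p = 0.672) did not pass. The median of the heat shock list was 0.16 without the libraries with Myh4 above 5000. The Hspa8 call did not hold there (adjusted p = 0.469), nor when any 1 of 9 libraries was left out (adjusted p up to 0.124). Of 19 ER chaperone and unfolded protein response genes 16 had a negative difference, with a median of -0.076, and none was called with limma.

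After Nr1d1, the largest fall among the named genes was that of Fos, an immediate early gene. Fos ran from 22.3 to 156 at ZT3 (median 47.3) and from 4.07 to 19.3 at ZT15 (median 9.53), with no overlap and a difference of -2.45 ± 0.51 (5.47-fold lower, adjusted p = 0.0132). At ZT3, ZT3_SED_2 and ZT3_SED_4 were at 126 and 156, and the other 4 between 22.3 and 56.3. All 23 immediate early genes, which respond within minutes to handling, hormones or stretch, had a negative difference, against 7464 of all 16233 genes. Their median was -0.51, but Fos alone was called. Fosb (-2.38 ± 0.68, adjusted p = 0.0892), Egr1 (-1.93 ± 0.52, adjusted p = 0.0707) and Egr2 (-1.78 ± 0.50, adjusted p = 0.0856) came next. For Fosb, Egr1, Egr2 and Junb the highest library was ZT3_SED_4. Ccn1, a matricellular growth factor gene, fell from 30.9 to 149 at ZT3 to 12.2 to 35.8 at ZT15 (-1.54 ± 0.36, adjusted p = 0.0337), with the same 2 ZT3 libraries highest, and its adjusted p was 0.0856 without ZT3_SED_4. The Ccn1 call was lost when any 1 of 6 libraries was left out.

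The collagens lay below 0 in 20 of 24 genes, with a median of -0.55, and 2 fell. Col5a3, a minor fibrillar collagen, ran from 563 to 717 at ZT3 (median 617) and from 254 to 492 at ZT15 (median 287), with no overlap (-1.01 ± 0.20, 2.01-fold lower, adjusted p = 0.00891). Col1a1, the main chain of type I collagen, ran from 1502 to 2653 at ZT3 and from 504 to 1572 at ZT15 (-0.93 ± 0.23, adjusted p = 0.0485), a call lost when any 1 of 10 libraries was left out (adjusted p up to 0.119). The second chain Col1a2 had a like difference that missed the threshold (-0.83 ± 0.25, adjusted p = 0.115), although its groups did not overlap, and Col3a1 stood at -0.71 ± 0.25 (adjusted p = 0.205). The summed signal of the 24 collagens was 17193 to 23557 in the ZT3 libraries and 6928 to 16450 in the ZT15 libraries, so the sums did not overlap. Taken singly, 3 of the 24 collagens separated without overlap, against 2.51% of all genes. The lowest sum was that of ZT15_SED_6, the library highest in lymphocyte markers, and the next lowest at ZT15 was 12581.

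Beyond collagens, 26 of 29 elastic fibre and matrix glycoprotein genes were below 0 (median -0.36) and 1 fell. This was Fbn1, which encodes fibrillin-1 and asprosin, with 297 to 823 at ZT3 and 79.5 to 326 at ZT15 (-1.56 ± 0.38, 2.95-fold lower, adjusted p = 0.0420), and the call was lost when any 1 of 9 libraries was left out (adjusted p up to 0.111). Of 17 genes for collagen processing Loxl2, a lysyl oxidase that crosslinks collagen, fell from 58.4 to 89.6 to 14.5 to 42.6 (-1.10 ± 0.23, 2.14-fold lower, adjusted p = 0.0164) with no overlap. Of 15 matrix proteases and inhibitors 2 fell and the median was -0.61. Adamts4, an aggrecanase, had the largest of these changes, from 11.4 to 15.3 at ZT3 to 2.05 to 3.53 at ZT15 (-2.01 ± 0.23, 4.03-fold lower, adjusted p = 5.88e-05), with no overlap. Mmp14, the membrane-bound collagenase, ran from 63.5 to 110 and from 29.2 to 61.1 (-0.92 ± 0.19, adjusted p = 0.0118). The laminins and their receptors had a median of -0.11 over 14 genes and no call with limma.

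None of the 8 preadipocyte and fibroblast markers was called, and their summed levels overlapped between the times. The sum was 545 to 1196 at ZT3 (median 927) and 327 to 1159 at ZT15 (median 707), and Pdgfra, a receptor that marks progenitors, ran from 188 to 283 and from 85.0 to 227 (-0.48 ± 0.22, adjusted p = 0.368). In bulk tissue fewer cells of a type and less RNA per cell cannot be told apart, and the part of fibroblasts in the matrix result was not tested. The collagen median was -0.37 and the glycoprotein median -0.11 once scores of lymphocyte and muscle markers entered the model. Without the libraries with Cd79a above 5 these medians were -0.44 and -0.18. The call of Fbn1 held in neither of these fits (adjusted p = 0.0616 and 0.0644) and that of Col1a1 did not hold with the covariates (adjusted p = 0.0623), whereas Adamts4, Loxl2, Mmp14 and Col5a3 were called in both. Without the libraries with Myh4 above 5000 the medians were -0.56 and -0.33. There Adamts4 stayed called (adjusted p = 0.0056), and Loxl2, Mmp14 and Col5a3 did not (adjusted p = 0.15, 0.124 and 0.111).

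Of 18 mechanosensitive and TGF-beta genes 2 fell, Smad6 and Ccn1, where 0.561% of all genes did, and the median was -0.058. Outside that list, Fst, which encodes the activin antagonist follistatin, fell from 22.6 to 39.4 at ZT3 to 9.50 to 19.6 at ZT15 (-0.97 ± 0.16, 1.96-fold lower, adjusted p = 0.00225), with no overlap. Sh3pxd2b, an adaptor of podosomes, fell from 81.7 to 105 to 36.6 to 55.4 (-0.99 ± 0.16, adjusted p = 0.00154). Igsf10 (-1.08 ± 0.19, adjusted p = 0.00363), Klhl13, an adaptor of a ubiquitin ligase (-0.997 ± 0.206, adjusted p = 0.0132), and Syne3, a nesprin of the nuclear envelope (-0.98 ± 0.16, adjusted p = 0.00154), fell to a similar extent, each without overlap. Smad6, an inhibitor of BMP signalling, fell by 0.72 ± 0.18 (adjusted p = 0.0420), a call lost when any 1 of 10 libraries was left out (adjusted p up to 0.0994).

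**Figure D3:**
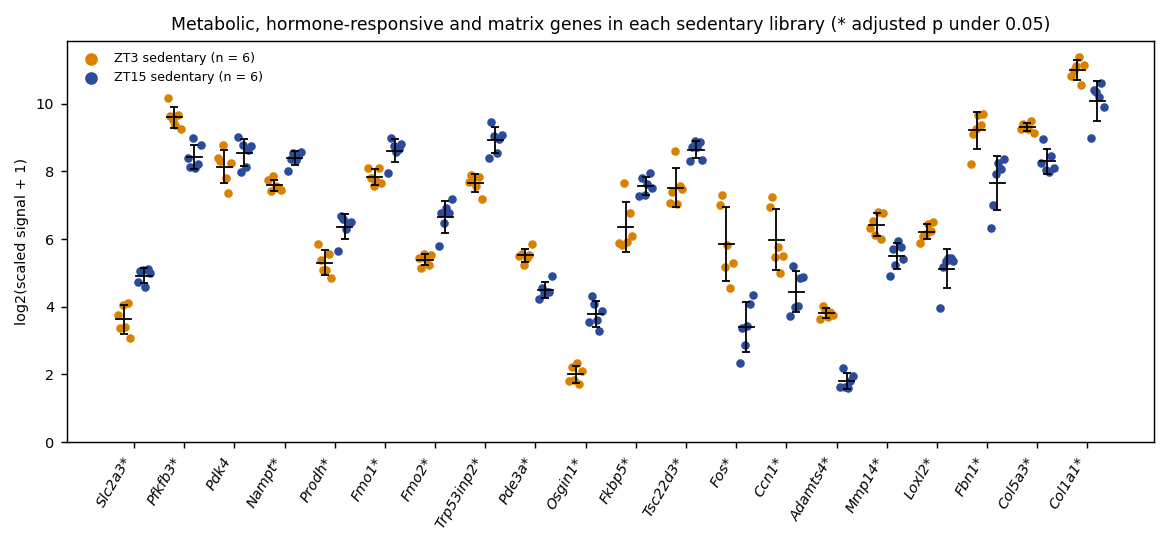
Signal of 20 metabolic, hormone-responsive and matrix genes as log2(signal + 1) in each sedentary library, with 6 points per time and the mean ± SD as bars. Pfkfb3, Pde3a, Adamts4 and Loxl2 lie lower at ZT15 with no overlap, and the ZT3 points of Fkbp5 and Tsc22d3 reach into the ZT15 range through a single library.

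The 16 interferon-stimulated genes had a median of -0.37, with 12 below 0 and no call with limma. Oasl2 ran from 27.5 to 48.6 at ZT3 and from 11.0 to 24.3 at ZT15 with no overlap, yet its adjusted p was 0.0613 (-1.07 ± 0.28), and that of Oas1a was 0.0554 (-0.85). Other interferon-induced genes outside the list were called, and these were picked after their values were seen. Gbp6, a guanylate-binding protein, fell from 15.1 to 31.8 at ZT3 to 7.54 to 10.5 at ZT15 (-0.96 ± 0.16, adjusted p = 0.00154). Gbp10 (-1.26 ± 0.26, adjusted p = 0.0130) and the immunity-related GTPase Irgm2 (-0.61 ± 0.13, adjusted p = 0.0142) fell too. In each of these 3 the groups did not overlap. Near-identical guanylate-binding protein genes can share reads, so the values of Gbp6 and Gbp10 are uncertain.

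The remaining lists held few calls. None of the 16 adipogenic transcription factors, 15 angiogenic genes, 21 Wnt pathway genes, 15 listed cytokines and chemokines, 15 integrated stress response genes or 2 cold-inducible RNA-binding protein genes was called with limma. All 20 respiratory chain genes lay above 0, with a median of 0.13 and a largest difference of 0.21, and none was called. Without the libraries with Myh4 above 5000 that median was -0.0032.

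The same time comparison in exercised mice gave 680 called genes (4.19% of all genes), 415 higher and 265 lower at ZT15. The exercised and sedentary comparisons share no library, although the fit shares its estimate of the spread. Of the 191 sedentary genes, 187 (97.9%) had the same sign in exercised mice, against 57.0% of all genes, and 113 were called there with that sign. These 113 make up 59.2% of the sedentary and 16.6% of the exercised calls. Fitting each pair of groups alone gave 276 sedentary and 109 exercised calls, so the order of the 2 counts was reversed. Of these 276 genes, 158 were among the 191. The separate fits shared 63 calls, all with the same sign. The cause of the reversed order was not tested. In exercised mice Nr1d1 differed by -2.86 ± 0.19, Cry1 by 1.60 ± 0.12 and Per2 by 2.12 ± 0.26, each within 1 SE of the difference from its sedentary value.

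**Figure D4:**
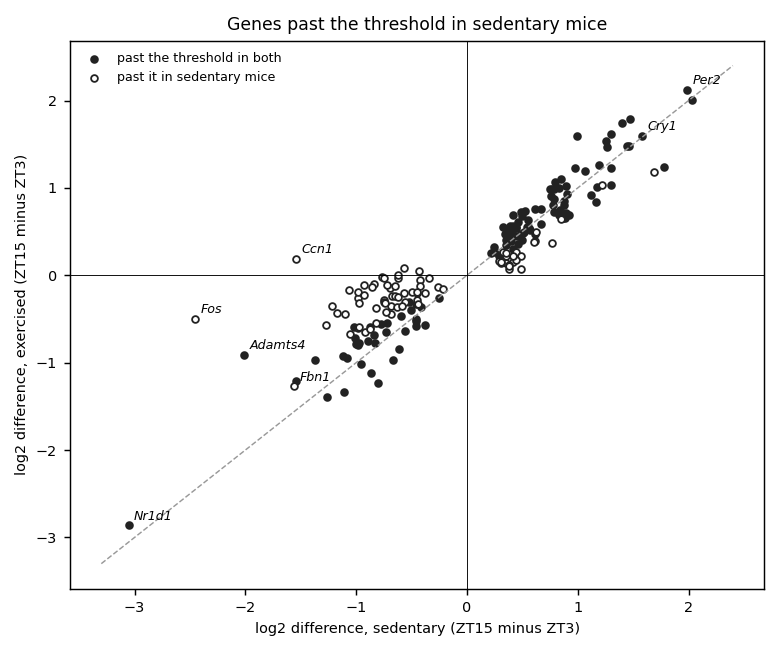
Each of the 191 genes called in sedentary mice, by its difference between ZT15 and ZT3 in sedentary mice (horizontal) and in exercised mice (vertical), both log2, with equality as a dashed line. The filled points are the 113 called in both, and Fos and Ccn1 lie far above the line.

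The higher genes had medians of 0.61 in sedentary and 0.64 in exercised mice, and the lower genes had medians of -0.75 and -0.37. Since these genes were chosen on the sedentary value, a smaller value in the other comparison is to be read with that choice in mind. The difference between the comparisons was tested for every gene, and limma called 0 genes, while 1273 genes had an unadjusted p under 0.05 and the lowest adjusted value was 0.583. On recovered reads edgeR also called 0, and DESeq2 called 239. Ccn1 differed by -1.54 in sedentary and 0.19 in exercised mice (difference 1.73 ± 0.51), Fos by -2.45 and -0.50 (1.95 ± 0.72), Adamts4 by -2.01 and -0.91 (1.10 ± 0.33) and Pfkfb3 by -1.17 and -0.44 (0.73 ± 0.25), each with an adjusted p of 0.583 for the difference. In Ccn1 the ZT15 libraries of exercised mice ran from 42.3 to 117, above all 6 of ZT15 SED, and the ZT3 libraries of exercised mice ran from 34.3 to 94.9.

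By list, the immediate early genes had a median of -0.51 in sedentary and 0.34 in exercised mice, with 0 of 23 and 19 of 23 members above 0. Collagens had medians of -0.55 and -0.14, and matrix glycoproteins -0.36 and 0.017. Interferon-stimulated genes had medians of -0.37 and -0.77. In exercised mice 10 of the 16 were called lower, where 265 of all 16233 genes were. Respiratory chain genes had medians of 0.13 and 0.29. The medians over all genes were 0.016 and -0.0058, with 8769 and 7933 of 16233 genes above 0. No list was tested for a difference between the comparisons.

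**Figure D5:**
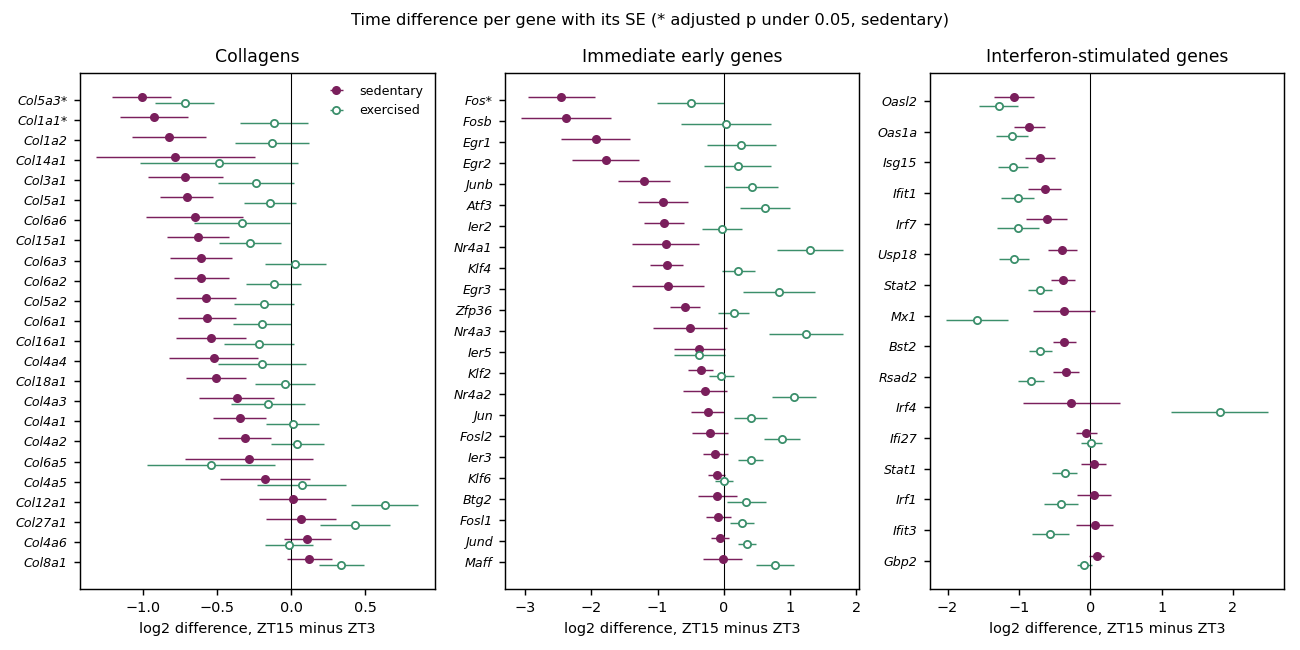
Difference between ZT15 and ZT3 (log2, points, with SE bars) of each collagen, immediate early gene and interferon-stimulated gene, in sedentary mice (filled) and exercised mice (open). All 23 immediate early genes lie left of 0 in sedentary mice, and 19 of them lie right of 0 in exercised mice.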

How the data were processed

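Stranded total RNA libraries depleted of ribosomal RNA were sequenced, per the labels' protocols. Per the submitters' processing notes, the tools included featureCounts, Subread 1.6.2, STAR and limma 3.48.3, with neither role nor order. Build, annotation, strand setting and the filter on low genes are not given in the sources here. The authors deposited 1 normalised signal per gene and library. All deposited values (100%) were whole multiples of 1 read within a tolerance of 0.01, and they equalled TMM-scaled reads per M (mega) reads recomputed with edgeR to a relative difference of 5.335e-15.

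From these, log2(signal + 1) was fitted with limma 3.58.1 in R 4.3.3 (lmFit, and eBayes with trend) in a group-means model of all 24 libraries. Adjustment was by Benjamini-Hochberg over 16233 genes. All adjusted p-values are from this fit unless another tool is named. Alternatives covered scaling, pseudocount (0.1), filter, moderation, libraries in the fit, blocks of title numbers, weights, covariates, threshold, each sedentary library left out, edgeR 4.0.16 and DESeq2 1.42.0 on recovered reads. Scripts were tested on simulated data. No 2 of the 66 pairs of sedentary libraries were alike within sampling noise (lowest chi-square per degree of freedom 32.4).

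Named genes were the 15 higher and 15 lower genes of largest difference with a named symbol and above-median expression, the 10 of smallest p, and from each of 35 lists the called members (up to 8), or the 2 most abundant where none was called, with all clock genes, of which some are not reported here. List members beyond these are named with values to describe their list, and were picked after their values were seen. The comparison, the rule and the lists were chosen with earlier results of these data known. Promoters are from RefSeq (GRCm38.p6), matched by gene identifier.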

Additional observations from a re-analysis of the deposited data

Results flagged for a closer look

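In 17 of 184 groups of 6 libraries (92 named genes at 2 times), 1 library lay far from the other 5 by Dixon's ratio, where chance flags about 1 in 20 groups. In ZT15_SED_6, the library highest in lymphocyte markers, Wee1 was at 16.7 (others 23.1 to 26.7), Prodh at 49.4 (78.2 to 100.7), Loxl2 at 14.5 (35.2 to 42.6) and Lamc1, a laminin chain, at 386 (611 to 692), all low, and Rbm3, a cold-inducible gene, was high at 89.3 (55.5 to 64.3). In ZT3_SED_10, Tsc22d3 was at 390 (others 129 to 189), Per1 at 163 (39.7 to 64.8), Nfil3 at 27.0 (9.03 to 11.9) and Syne3 at 103 (65.6 to 76.6), all high. In ZT15_SED_14, the library highest in muscle markers, the ATP synthase genes Atp5b and Atp5a1 were high at 2068 (others 1477 to 1598) and 1409 (873 to 1021). In ZT3_SED_20, Lonrf3 was low at 2.37 (others 3.53 to 4.37) and Fasn low at 9486 (17619 to 20775). In ZT3_SED_18, Ccdc183 was low at 0.308 (others 0.801 to 1.16) and Psat1, a serine synthesis enzyme, high at 148 (91.0 to 97.7). Pim3 was low in ZT3_SED_12 at 71.0 (others 92.6 to 107), and the kinase gene Gsk3b was low in ZT15_SED_16 at 105 (127 to 138).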

How the results depend on the processing

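The 191 called genes became 287 with title number blocks in the model (151 lower), 713 with sample weights (400 higher, 313 lower), 551 with lymphocyte and muscle covariates (301 and 250), 548 with DESeq2 (286 and 262) and 47 without libraries with Myh4 above 5000 (25 and 22). At an adjusted p under 0.1 there were 387 (184 and 203), and with 2-fold or more 39 (20 and 19). Only the groups compared gave 150 lower genes, and leaving out Cd79a-high libraries gave 159 higher ones. Leaving out each sedentary library gave 130 to 180 called genes, 65 to 111 higher and 64 to 87 lower. The exercised count of 680 became 426 with quantile normalization, 109 with only the groups compared, 1590 with DESeq2 and, in alternatives added after seeing the data, 1132 with covariates and 196 without Myh4-high libraries. The difference between exercised and sedentary mice, 0 genes, became 239 with DESeq2, and was not run on only the groups compared, since it needs all 4. The causes were not tested. Other settings (edgeR, quantile normalization, median centring, pseudocount, filter, no trend, robust moderation) kept the sedentary counts within 1.5 times. Of 43 called genes under the naming rule, none changed sign, 33 were called without every single library in turn, 20 passed in every alternative, and 21 lost the call without Myh4-high libraries, where 4 ZT3 and 5 ZT15 sedentary libraries remain. The 20 include Nr1d1, Cry1, Per2, Npas2, Nampt, Pfkfb3, Pde3a and Adamts4. Low signal limits Ccdc183, and the wide spread between libraries limits Ucp1. No paired analysis was possible because no group shares a title number with another.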

Other observations

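Some called genes outside the rule were picked after their values were seen. Creb3l1, a transcription factor of the secretory pathway that acts on collagen genes, fell from 18.7 to 22.6 at ZT3 to 4.17 to 12.8 at ZT15 (-1.27 ± 0.22, adjusted p = 0.00322). Kdelr3, a receptor that retrieves proteins to the endoplasmic reticulum (-0.98 ± 0.19, adjusted p = 0.00902), and Ckap4, a membrane protein of the same compartment (-0.75 ± 0.13, adjusted p = 0.00315), fell with it, all 3 without overlap between the groups. The proteases Adamts12 (-0.84 ± 0.19) and Adamts14 (-0.69 ± 0.16), and the matrix protein gene Spon2 (-1.54 ± 0.26), were lower as well. Ffar2, a receptor for short-chain fatty acids, fell from 56.7 to 84.6 to 20.7 to 49.7 (-0.87 ± 0.21, adjusted p = 0.0402). In ZT15_SED_6 the values of Creb3l1, Kdelr3, Ckap4, Spon2 and Ffar2 were the lowest of their group.

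Among higher genes, Dnah3, an axonemal dynein, ran from 3.31 to 7.37 at ZT3 and from 9.01 to 36.7 at ZT15 (2.03 ± 0.30, 4.09-fold, adjusted p = 0.000533), the largest rise of all called genes. Cys1, a gene of the primary cilium, rose by 1.45 ± 0.21 (adjusted p = 0.000471). Gart (0.31 ± 0.08) and Atic (0.38 ± 0.09), enzymes of purine synthesis, and Srm (0.46 ± 0.09), spermidine synthase, rose by small amounts, each without overlap. The co-chaperones Dnajb6 (0.46 ± 0.10, adjusted p = 0.0145) and Dnaja2 (0.36 ± 0.07, adjusted p = 0.0145) rose too.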
